A study of Mus musculus with 56 samples.

Results

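Kupffer cells are the resident macrophages of the liver. They sit in the sinusoids, where they clear bacteria, immune complexes, ageing red blood cells and debris from portal blood. They are also a main hepatic source of C1q, a part of the first complement component. The genes followed, all known markers of these cells, were Clec4f, Vsig4, Cd5l, Marco, C1qa, C1qb, C1qc, Cd68, Adgre1 and Fcer1g. The 10 genes were taken by symbol from the 25415 genes listed, of which 25370 were tested, and each was measured in all 56 libraries.

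The libraries were made from whole liver of C57BL/6J female mice aged 9 weeks under a light-dark cycle with 12 h of light. Food was offered for 7 days only in the daytime (daytime-restricted feeding, DRF) or only in the nighttime (nighttime-restricted feeding, NRF, the reference). Livers were collected every 4 h from zeitgeber time ZT0 (lights on) to ZT24, which gave 14 groups of 4 libraries. The labels do not name the animals, so p-values measure the spread between these libraries. No genotype, transgene or drug was involved, and all animals had normal chow. In bulk liver, fewer Kupffer cells and less RNA per Kupffer cell cannot be told apart.

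Values are scaled counts, recovered from the deposited numbers by undoing a logarithm and a division by exon length. They compare libraries for a given gene. For comparisons between genes, the scaled count was divided by the exon length in kb. Recovered counts behind the 10 genes were high in every library: the lowest was 586 for Cd68 and the highest was 307741 for Adgre1. Intervals from such counts would cover counting error only, so the spread between libraries is given instead.

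The libraries of a group were alike, with Pearson's r between 0.965 and 0.99 over genes. NRF ZT16 replicate 3 and NRF ZT12 replicate 3 had the lowest mean r with their group, at 0.967 and 0.972, and results that rest on them are given without them too. NRF ZT24 replicate 4 stood apart in Marco, Adgre1 and Clec4f, as described with those genes.

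The receptors of the set bind what the cell clears. Clec4f is a C-type lectin restricted to Kupffer cells in the mouse, Vsig4 is a complement receptor of the immunoglobulin family, and Marco is a class A scavenger receptor. Cd5l is a secreted scavenger receptor protein of macrophages, and Adgre1 is the adhesion receptor known as F4/80. Cd68 is a glycoprotein of the endosome and lysosome, and Fcer1g is the common gamma chain that carries the signal of Fc receptors. C1qa, C1qb and C1qc encode the chains of C1q, which starts the classical complement pathway.

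All 10 genes carry no other annotated gene over their exons in GENCODE M21 (GRCm38), on the same strand or the opposite one. C1qa, C1qb and C1qc lie next to each other on the minus strand of chromosome 4, at 136895917 to 136898803, 136880129 to 136886187 and 136889804 to 136893065. Fcer1g and Marco are on chromosome 1, at 171229572 to 171234365 and 120474538 to 120505024. The others are Cd5l on chromosome 3 (87357881 to 87371073), Clec4f on chromosome 6 (83644542 to 83656187), Cd68 on chromosome 11 (69664213 to 69666153), Adgre1 on chromosome 17 (57358691 to 57483527) and Vsig4 on chromosome X (96247203 to 96293438). Exon lengths ran from 874 bases for Fcer1g to 3238 bases for Adgre1.

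Promoters, from 250 bases before to 50 bases after the gene start, were found in RefSeq (GRCm38.p6) for 8 of the 10 genes. Shown are those of the neighbouring C1qb and C1qc, which varied together, and those of Cd68 and Fcer1g, the members with a rhythm under both regimens. Capitals mark GAGGAA or its reverse complement TTCCTC, the core bound by the myeloid factor PU.1.
C1qb, chr4:136886151-136886450, minus strand: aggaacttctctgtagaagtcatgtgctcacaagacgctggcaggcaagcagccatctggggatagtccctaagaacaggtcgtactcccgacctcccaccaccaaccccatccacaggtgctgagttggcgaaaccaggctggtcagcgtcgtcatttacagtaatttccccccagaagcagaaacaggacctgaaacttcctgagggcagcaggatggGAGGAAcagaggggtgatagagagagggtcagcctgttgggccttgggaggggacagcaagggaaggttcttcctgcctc
C1qc, chr4:136892865-136893164, minus strand: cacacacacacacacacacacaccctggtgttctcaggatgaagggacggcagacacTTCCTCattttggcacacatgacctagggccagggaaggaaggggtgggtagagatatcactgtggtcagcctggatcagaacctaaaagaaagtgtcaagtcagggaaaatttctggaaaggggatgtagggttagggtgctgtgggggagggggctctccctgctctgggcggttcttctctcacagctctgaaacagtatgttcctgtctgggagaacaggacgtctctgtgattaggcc
Cd68, chr11:69666121-69666420, minus strand: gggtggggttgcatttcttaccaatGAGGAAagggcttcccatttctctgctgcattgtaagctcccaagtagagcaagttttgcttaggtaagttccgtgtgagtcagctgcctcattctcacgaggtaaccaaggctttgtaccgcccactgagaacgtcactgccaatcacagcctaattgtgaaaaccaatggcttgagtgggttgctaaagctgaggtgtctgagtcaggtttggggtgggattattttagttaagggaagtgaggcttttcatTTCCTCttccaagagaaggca
Fcer1g, chr1:171234300-171234599, minus strand: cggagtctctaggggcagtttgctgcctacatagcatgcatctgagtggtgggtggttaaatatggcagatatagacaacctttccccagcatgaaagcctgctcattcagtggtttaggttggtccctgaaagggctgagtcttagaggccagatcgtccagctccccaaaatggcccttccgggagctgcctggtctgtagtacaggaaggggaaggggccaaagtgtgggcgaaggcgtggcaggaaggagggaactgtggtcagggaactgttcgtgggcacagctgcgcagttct
These letters were present on either strand in 6 of the 8 promoters, Vsig4, Cd5l, Marco, C1qb, C1qc and Cd68, and in 28.3% of all 32851 promoters. Clec4f and Fcer1g did not hold them in this window. The E-box CACGTG, which reads the same on both strands and is bound by BMAL1 and CLOCK, was in none of the 8 and in 7.15% of all promoters. The nuclear receptor element AGGTCA (reverse complement TGACCT) was in the promoters of Clec4f and C1qc, and in 16.3% of all. The AP-1 site TGACTCA (reverse complement TGAGTCA) occurred at 2 places in the Cd68 promoter and in 5.2% of all. Matches of different motifs did not overlap in these promoters. A match of letters is a description, not a bound site.

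The levels of the 10 genes spanned a wide range. Per kb of exon, the median scaled count over 56 libraries was 136 for Vsig4, 62.8 for Adgre1, 54.2 for Cd5l, 40.8 for Clec4f, 40.7 for C1qb, 22.9 for C1qa, 10.1 for Marco, 6.83 for Fcer1g, 6.79 for C1qc and 1.86 for Cd68. Vsig4 exceeded Adgre1 in 55 of 56 libraries, and C1qb exceeded C1qa in 56. Adgre1 exceeded Cd5l in 37 libraries only, Clec4f exceeded C1qb in 33 and Fcer1g exceeded C1qc in 31, so the order of these neighbours changed between libraries. Their differences were not tested.

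The C1q chains kept a narrow ratio. Per kb, C1qb was 1.77 ± 0.145 times C1qa (SD, n = 56 libraries) and 6.03 ± 0.842 times C1qc. The C1qb to C1qc ratio ranged from 4.95 to 11.2, and the top value was in NRF ZT12 replicate 3, where C1qc was 9.02 and C1qb was 56.8 in scaled counts.

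Spread within groups also differed between genes. The median coefficient of variation within a group was 10.8% for Clec4f and 41.2% for Marco, and it lay between 12.6% and 18.2% for the other 8. Over all libraries, Clec4f ran from 68.2 to 139 in scaled counts, while Marco ran from 9.21 to 195.

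**Figure D1:**
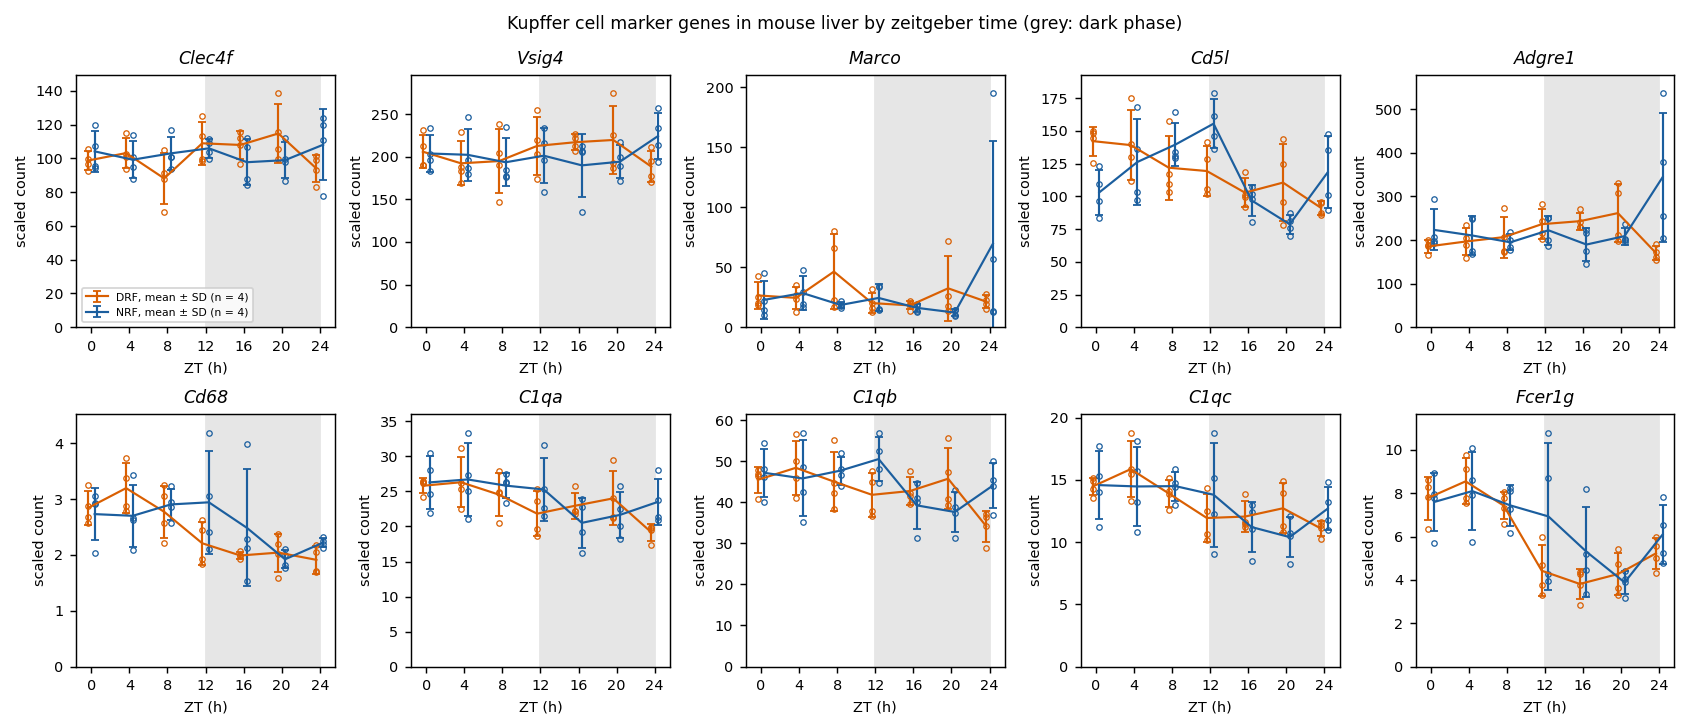
Scaled counts of the 10 genes (y axis, from 0) against zeitgeber time in hours (x axis), with 1 open point per library and lines with bars for the mean ± SD of 4 libraries, DRF in orange and NRF in blue, dark phase in grey. Fcer1g under DRF lies between 6.37 and 9.77 from ZT0 to ZT8 and between 2.82 and 5.96 from ZT12 to ZT20. At ZT24, the same clock time as ZT0, it lies between 4.33 and 5.98. In NRF ZT24 a single library carries Marco to 195 and Adgre1 to 537.

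The first question was whether the markers had a 24-h rhythm, which was tested with a cosine curve per regimen in limma. Under DRF, 3 of the 10 were rhythmic (Cd68, Adgre1 and Fcer1g), where 34.9% of all genes tested were. Under NRF, 5 of the 10 were rhythmic (Cd5l, C1qa, C1qc, Cd68 and Fcer1g), where 43.6% of all genes were. The members' counts were near the background. Cd68 and Fcer1g were rhythmic under both regimens, which held for 23.2% of all genes.

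Fcer1g had the lowest adjusted p of the 10 under DRF. There its scaled counts were 8.62, 7.83, 8.28 and 6.37 at ZT0, 7.56, 9.77, 7.76 and 9.11 at ZT4, and 7.32, 8.04, 6.58 and 7.79 at ZT8. They were 3.74, 4.7, 3.29 and 5.96 at ZT12, 3.79, 4.37, 2.82 and 4.28 at ZT16, and 4.73, 3.32, 3.62 and 5.41 at ZT20, with 4.33, 5.98, 5.03 and 5.57 at ZT24. Every DRF library from ZT0 to ZT8 was above every DRF library from ZT12 to ZT24. That gap also parts ZT0 from ZT24, which are the same clock time. The log2 step from ZT0 to ZT24 was -0.49 ± 0.20 (SE, limma adjusted p = 0.177). Whether time of day or earlier and later collection lies behind the gap was not tested.

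Under NRF, Fcer1g was 5.72, 7.78, 8.92 and 7.98 at ZT0, 5.77, 10.1, 7.94 and 8.62 at ZT4, and 8.1, 8.23, 6.16 and 7.28 at ZT8. It was 8.7, 10.8, 3.93 and 4.29 at ZT12, 3.36, 5.19, 8.2 and 4.45 at ZT16, 3.15, 3.92, 4.04 and 4.43 at ZT20 and 4.78, 6.53, 5.27 and 7.82 at ZT24. Here the ZT12 libraries fell on either side of the range, and ZT16 replicate 3 lay among the daytime values.

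The fitted peak-to-trough ratio of Fcer1g was 2.07 under DRF (adjusted p = 1.13e-05) and 1.72 under NRF (adjusted p = 0.000957). Its peak was at ZT4.53 ± 0.571 h (SE) under DRF and at ZT5.86 ± 0.753 h under NRF. The peak therefore shifted by 1.33 ± 0.945 h, within the 4 h that the study's phase classes call phase-locked, although the feeding phase was inverted.

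Cd68 followed a like course at a lower level. Under DRF its libraries ranged from 2.78 to 3.73 at ZT4 and from 1.7 to 2.18 at ZT24, without overlap. At ZT0, the same clock time as ZT24, the DRF libraries ranged from 2.56 to 3.24 and did not overlap those of ZT24 either. The log2 step from ZT0 to ZT24 was -0.40 ± 0.14 (SE, limma adjusted p = 0.0911). Whether the low ZT24 values reflect time of day or the later collection was not tested. Under NRF its libraries ranged from 2.11 to 4.19 at ZT12 and from 1.76 to 2.11 at ZT20, where the groups overlapped. The fitted ratio of peak to trough was 1.38 under DRF (adjusted p = 0.00576) and 1.28 under NRF (adjusted p = 0.032). The fitted Cd68 peaks were ZT5.43 ± 0.867 h for DRF and ZT7.93 ± 1.17 h for NRF. They lay 2.5 ± 1.45 h apart. That estimate is below the limit of 4 h, but its SE does not exclude a larger distance, so no phase class is given for Cd68. Over the alternatives the distance ran from 1.54 h without replicate number 3 to 3.82 h with the length correction, where the NRF rhythm did not pass. Whether the like peak times of Fcer1g and Cd68 reflect time of day or earlier and later collection was not tested. With replicate number 4 left out in all groups the DRF rhythm of Cd68 did not pass (adjusted p = 0.0655), and its NRF rhythm did not pass without number 1, 2 or 4 (0.072 to 0.249).

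The NRF values of both genes at ZT12 and ZT16 depend on the libraries least like their groups. Cd68 was 2.11 in ZT12 replicate 3 and 3.98 in ZT16 replicate 3, while the other ZT16 libraries held between 1.54 and 2.29. Without these 2 libraries the rhythms under NRF passed with adjusted p of 9.31e-05 for Fcer1g and 0.00366 for Cd68. At ZT12 both genes were then lower under DRF than under NRF, by log2 differences of -0.67 (adjusted p = 0.0132) and -0.38 (adjusted p = 0.0251), which with all libraries were -0.47 and -0.28 and did not pass.

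Cd5l was rhythmic under NRF (adjusted p = 0.000135) with a fitted peak at ZT8.09 ± 0.704 h and a peak-to-trough ratio of 1.73. NRF values at ZT12 were 146, 161, 179 and 136, and at ZT20 they were 69.9, 76.2, 81.5 and 87.2, so the highest and lowest NRF groups were far apart. Under DRF the Cd5l rhythm did not pass (adjusted p = 0.231), and the difference between the 2 rhythms did not pass either (adjusted p = 0.083). The call on that difference depended on the processing. Over 14 alternatives its adjusted p in limma ran from 0.00127 to 0.548, and 11 kept the call. Passing in NRF alone does not show a difference between the regimens, and the test of the difference gave no stable call.

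The C1q chains behaved likewise. Under NRF, C1qa (adjusted p = 0.0318) and C1qc (adjusted p = 0.0109) passed with peaks at ZT5.56 ± 1.1 h and ZT5.91 ± 0.95 h, and C1qb did not (adjusted p = 0.062). Peak-to-trough ratios under NRF were 1.28 for C1qa, 1.26 for C1qb and 1.37 for C1qc. Under DRF none of the 3 passed, with adjusted p of 0.701, 0.809 and 0.153. The tests of rhythm difference gave adjusted p of 0.523, 0.536 and 0.701. C1qa no longer passed under NRF without NRF ZT12 replicate 3 and NRF ZT16 replicate 3 (0.0681) or with any replicate number left out (0.0637 to 0.113), nor C1qc without number 4 (0.0645).

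Clec4f, Vsig4 and Marco passed in neither regimen. Their adjusted p was 0.0932, 0.26 and 0.702 under DRF and 0.922, 0.507 and 0.282 under NRF. The highest group mean was 1.3 times the lowest for Clec4f under DRF and 1.18 times for Vsig4 under NRF. For C1qa under NRF, where the rhythm passed, it was also 1.3 times. For Marco it was 2.55 times under DRF and 5.69 times under NRF, and the highest and lowest groups overlapped under both.

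The rhythm of a single member differed between regimens, that of Adgre1 (adjusted p = 0.013), where 38.8% of all genes did. Under DRF, Adgre1 was 188, 200, 187 and 165 at ZT0, 159, 235, 189 and 204 at ZT4, and 174, 273, 207 and 173 at ZT8. It was then 216, 245, 203 and 282 at ZT12, 230, 271, 242 and 229 at ZT16, 307, 199, 211 and 330 at ZT20, and 154, 173, 162 and 191 at ZT24. From ZT12 to ZT20 every DRF library other than ZT20 replicate 2, at 199, was above the highest DRF library of ZT0 and ZT24, at 200. The DRF rhythm passed (adjusted p = 0.0428) with a peak at ZT15.2 ± 1.25 h.

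Under NRF, Adgre1 was 194, 198, 293 and 208 at ZT0 and 175, 223, 144 and 217 at ZT16, and the rhythm did not pass (adjusted p = 0.157). Its NRF values at ZT24 were 255, 380, 206 and 537, with 2 libraries above all other NRF libraries. The fitted shift of the peak was 9.06 ± 2.29 h (SE) with all libraries and 9.25 h without ZT24. It was 4.31 h with the values as deposited and between 8.11 h and 9.93 h under the other alternatives. As the NRF rhythm did not pass, no phase class is given for Adgre1. Without ZT24, the adjusted p of the Adgre1 rhythm difference was 0.0991. Without NRF ZT24 replicate 4 alone it was 0.0145, and with 1 replicate number left out in all groups it was between 0.036 and 0.0558, above the threshold of 0.05 without number 1 or 2. The DRF rhythm itself did not pass with any replicate number left out (0.0601 to 0.208).

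The balance of long and short genes differed between earlier and later collections. A length index was computed for each library by ranking genes on exon length and on how far each stood from its own mean, and correlating the ranks. It is above 0 where long genes are high. Group means of the index ran from -0.232 at DRF ZT8 to 0.181 at NRF ZT24, and under both regimens the index was below 0 from ZT0 to ZT8 and above 0 from ZT12 to ZT24. ZT0 and ZT24, the same time of day, therefore lay on opposite sides of 0. Fcer1g correlated with it at r = -0.617 over 56 libraries, with Spearman's rho of -0.566 and adjusted permutation p of 2e-05 and 6e-05.

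Cd68 gave r = -0.619, C1qc r = -0.594, C1qa r = -0.553, C1qb r = -0.441 and Cd5l r = -0.342, with adjusted permutation p of 2e-05, 2e-05, 2e-05, 0.00133 and 0.0187 for Pearson's r and 4e-05, 4e-05, 0.00015, 0.00473 and 0.0201 for Spearman's rho of -0.616, -0.57, -0.541, -0.4 and -0.333. The other 4 did not pass. Among the members that passed, exon length ran from 874 bases for Fcer1g to 1931 for C1qc and 2036 for Cd5l. Those that did not pass had 1484 bases (Vsig4), 1925 (Marco), 2471 (Clec4f) and 3238 (Adgre1), so the 2 ranges overlapped. For Fcer1g and Cd68 the sign held within DRF (r = -0.696 and -0.73) and within NRF (-0.566 and -0.539), and with the 2 libraries of the most extreme index left out (-0.612 and -0.608). It was smaller for deviations from group means, at -0.213 and -0.3. The summed scaled count of 80 ribosomal protein genes, which are short, was correlated with the members on the log2 scale. It gave r = 0.7 (rho = 0.698) for Cd68 and r = 0.657 (rho = 0.637) for C1qc. Each had an adjusted permutation p of 2e-05 for r and 4e-05 for rho. Fcer1g (r = 0.612), C1qa (0.597) and C1qb (0.367) passed too, with adjusted permutation p of 2e-05, 2e-05 and 0.0103. Cd5l (0.287), Vsig4 (0.205), Marco (0.107), Clec4f (0.0371) and Adgre1 (-0.198) did not pass for r. For deviations from group means r was 0.653 for Cd68 and 0.552 for C1qc. In all, 20 correlations were computed with these indices. Without the 2 libraries of the most extreme sum, r was 0.71 and 0.63.

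With a correction of each library for gene length, Fcer1g stayed rhythmic under both regimens (adjusted p of 5.91e-05 under DRF and 0.00616 under NRF). Cd68 passed under DRF (adjusted p = 0.0405) and not under NRF (0.0933), and C1qa no longer passed under NRF (0.218). Clec4f and Vsig4 then passed under DRF (0.0123 and 0.03). The part of exon length in these rhythms was otherwise not tested.

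**Figure D2:**
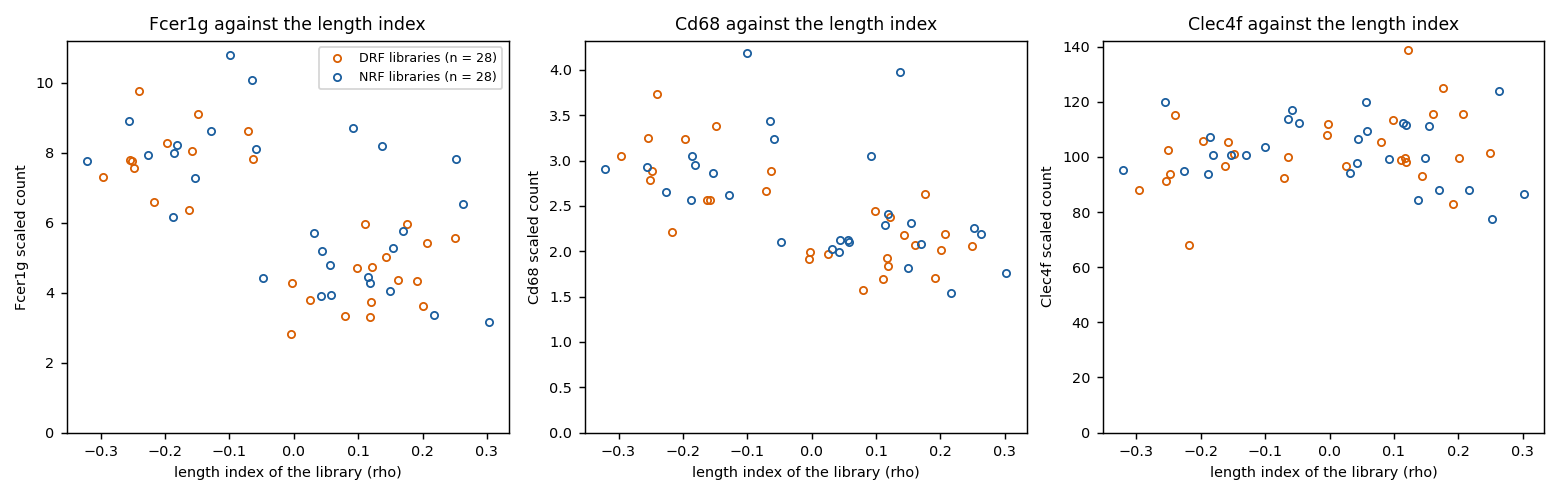
Scaled counts of Fcer1g, Cd68 and Clec4f (y axes, from 0) against the length index of the library (x axis, a rank correlation without unit), 1 point per library, DRF in orange and NRF in blue. Fcer1g and Cd68 are lower at a high index (r = -0.617 and -0.619) and Clec4f shows no such slope (r = 0.0777).

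Next, the level over the day was compared between regimens by the rhythm-adjusted mean. No member differed, where 6.8% of all genes tested did in limma. The log2 differences, DRF minus NRF, ran from -0.14 ± 0.08 (SE) for Fcer1g to 0.21 ± 0.21 for Marco, with adjusted p of 0.367 or more, and no member had an unadjusted p under 0.05 (lowest 0.104). The median difference of the members was -0.0077, against -0.0017 for all genes tested. Vsig4 averaged 204 ± 27.8 under DRF and 201 ± 27.3 under NRF (SD, n = 28 each), Clec4f 102 ± 13.4 and 102 ± 11.8, and Cd5l 118 ± 24.8 and 117 ± 30.7. The ranges of DRF and NRF libraries overlapped for every member.

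**Figure D3:**
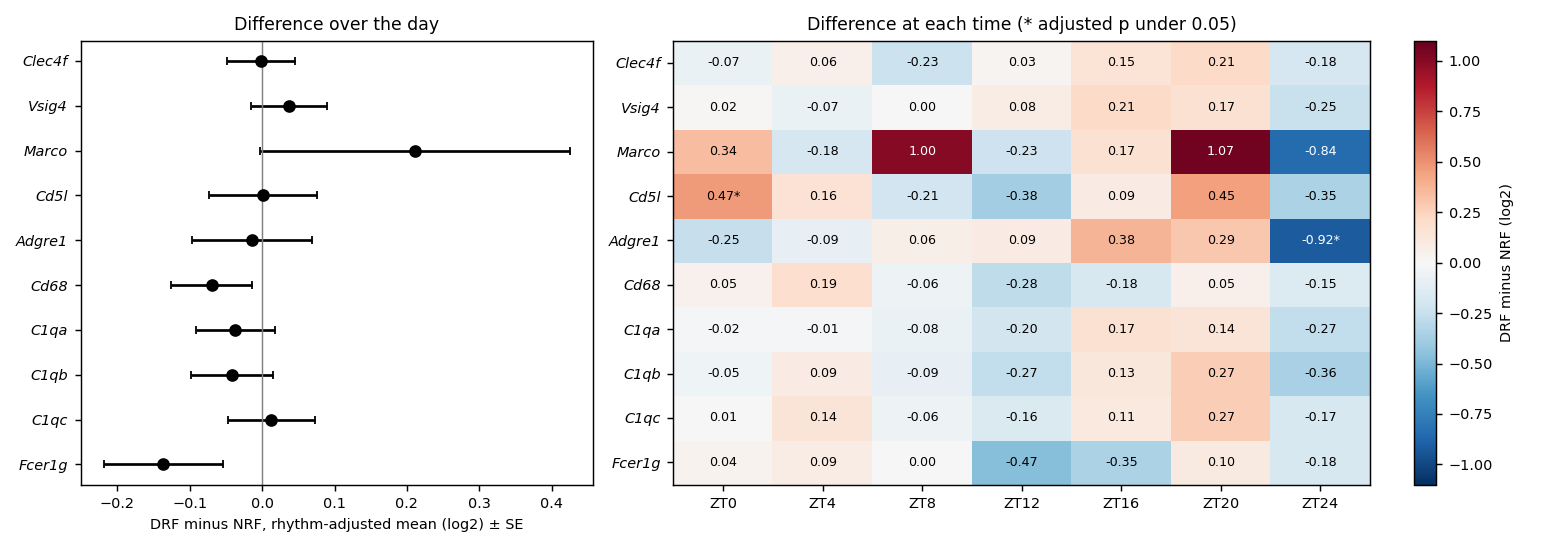
Left, the DRF minus NRF difference of the rhythm-adjusted mean (log2, x axis) with its SE for each gene. Right, the difference at each zeitgeber time as a colour and a printed log2 value, with an asterisk at adjusted p under 0.05. All mean differences lie between -0.14 and 0.21, and the asterisks stand at Cd5l in ZT0 (0.47) and Adgre1 in ZT24 (-0.92).

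At the same clock time, 2 members differed between regimens at 1 or more times, Cd5l (adjusted p = 0.00669) and Adgre1 (adjusted p = 0.00363), where 42.5% of all genes did. At single times, Cd5l differed at ZT0, where 16% of all genes did, and Adgre1 differed at ZT24, where 14.1% did. No member differed at ZT4, ZT8, ZT12, ZT16 or ZT20, where 20.4%, 13%, 15.1%, 15.2% and 13.7% of all genes did. At an unadjusted p under 0.05, Cd5l, C1qb, Cd68 and Fcer1g stood at ZT12 and Cd5l and C1qb at ZT20 in limma, and no member at ZT4, ZT8 or ZT16. At ZT24, C1qb (adjusted p = 0.0564), C1qa (adjusted p = 0.178) and Cd5l (adjusted p = 0.185) also had an unadjusted p under 0.05 in limma, beside Adgre1. The log2 differences of the members at ZT24 ran from -0.92 for Adgre1 to -0.15 for Cd68, and the groups did not overlap for C1qa and Adgre1. The shares of all genes below 0 or without overlap were not counted. Since the members varied together, their common direction is a description only.

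Cd5l at ZT0 was 148, 145, 150 and 126 under DRF and 83.3, 96.8, 123 and 109 under NRF. The DRF libraries were all higher, with 142 ± 11.1 against 103 ± 17 (SD, n = 4 each). The log2 difference was 0.47 ± 0.17 (SE, adjusted p = 0.0452), and with any replicate number left out it did not pass (0.0778 to 0.24). At ZT24, the same time of day a day later, the values were 86.1, 96, 87.5 and 95 under DRF and 101, 135, 89.9 and 147 under NRF. The direction was then opposite, with a log2 difference of -0.35 ± 0.17 that did not pass (adjusted p = 0.185).

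Adgre1 at ZT24 was lower under DRF, at 170 ± 16.2 against 344 ± 148 (SD, n = 4 each), without overlap of the groups. The log2 difference was -0.92 ± 0.2 (SE, adjusted p = 0.000567). Without NRF ZT24 replicate 4 it was -0.67 (adjusted p = 0.0122). At ZT0 the Adgre1 difference was -0.25 ± 0.2 (adjusted p = 0.47), and at ZT16 it was 0.38 ± 0.2 (adjusted p = 0.206).

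Since ZT0 and ZT24 are the same clock time, each regimen allows a comparison of 2 groups collected a day apart. The length index moved with this step, from a group mean of -0.124 to 0.174 under DRF and from -0.183 to 0.181 under NRF. Under DRF, Cd5l fell from ZT0 to ZT24 by 0.63 on the log2 scale (adjusted p = 0.0253, and 0.0643 to 0.169 with a replicate number left out), where 1.64% of all genes were lower at ZT24 and 1.44% higher. The other 9 members did not pass under DRF, and none passed under NRF, where 2.31% of genes were higher and 5.53% lower at ZT24. The log2 steps of the members under DRF ran from -0.63 for Cd5l to -0.07 for Clec4f, and under NRF Adgre1 stood at 0.55 ± 0.2 (adjusted p = 0.0754). The share of all genes with a step below 0 was not counted. With the length correction the DRF steps of C1qa and C1qb went from -0.41 each to -0.27 each, that of Clec4f to 0.00057, and that of Cd5l to -0.54 (adjusted p = 0.0207), while the NRF step of Adgre1 was 0.57 and passed (adjusted p = 0.0163). No interaction of this step with the regimen passed for a member (adjusted p of 0.498 or more), and 0.00394% of all genes passed.

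Marco was the most uneven gene. Most of its libraries lay between 9.21 and 48, and 5 libraries were higher: 195 in NRF ZT24 replicate 4, 80 in DRF ZT8 replicate 3, 72.1 in DRF ZT20 replicate 4, 65.9 in DRF ZT8 replicate 2 and 56.5 in NRF ZT24 replicate 2. These libraries came from 3 groups, and other libraries of those groups held between 13.1 and 26. The largest Marco difference between regimens, 1.07 ± 0.54 (SE) at ZT20 on the log2 scale, did not pass (adjusted p = 0.218).

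Adgre1 was 537 in NRF ZT24 replicate 4 and 207 in DRF ZT8 replicate 3, the 2 libraries with most Marco. Clec4f was at its lowest in the same pair, at 77.6 and 68.2. Over 56 libraries Marco and Adgre1 correlated at r = 0.601 (rho = 0.299, adjusted permutation p of 2e-05 and 0.0306), and r was 0.483 without the 2 libraries of the most extreme Marco. Marco and Clec4f did not correlate (r = -0.0636, adjusted permutation p = 0.671).

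**Figure D4:**
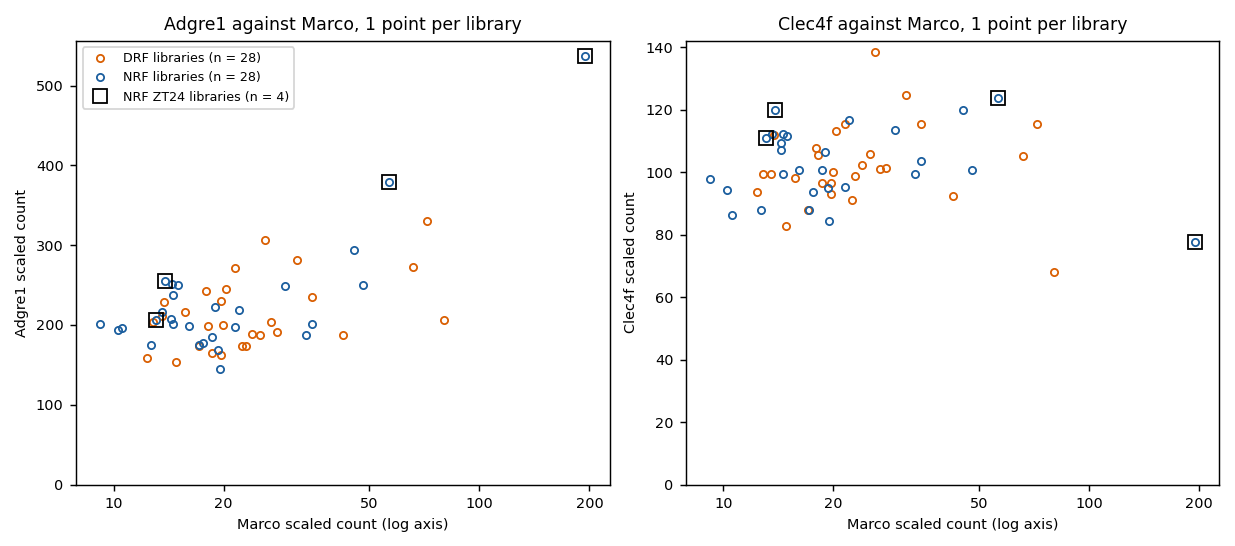
Adgre1 (left) and Clec4f (right) scaled counts (y axes, from 0) against the Marco scaled count (x axis, log scale), 1 point per library, DRF in orange, NRF in blue, and squares around the 4 NRF ZT24 libraries. The library with most Marco (195) is the highest in Adgre1 (537) and among the lowest in Clec4f (77.6).

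The members varied together from library to library. Of 45 pairs, 37 correlated over the 56 libraries, all positively (Pearson's r with a two-sided permutation test, adjusted over the 45 pairs). The permutation shuffled libraries across groups, so shared effects of time and regimen count toward these p-values. How many pairs of other genes correlate over these libraries was not counted, nor how many do so as deviations from group means. The highest were C1qa with C1qc (r = 0.897), C1qa with C1qb (0.88), Cd68 with Fcer1g (0.861), C1qc with Fcer1g (0.849) and Cd5l with C1qb (0.836), each with an adjusted permutation p of 2e-05, from the smallest p that 100000 permutations can give. Spearman's rho for these pairs was 0.896, 0.875, 0.88, 0.858 and 0.839, also with an adjusted permutation p of 2e-05. Without the 2 libraries farthest from the median, r was 0.877, 0.859, 0.861, 0.834 and 0.813.

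These pairs held within each regimen, from r = 0.811 to 0.947 under DRF and from 0.824 to 0.917 under NRF. The 8 pairs that did not pass were Clec4f with Marco, Cd68 and Fcer1g, Vsig4 with Fcer1g, Marco with Cd68, and Adgre1 with C1qc, Cd68 and Fcer1g. Their r ran from -0.103 to 0.264. No batch is given in the labels, so no correlation within batches was computed.

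Deviations from group means, which hold no effect of time or regimen, gave r above 0 for 44 of 45 pairs. Some pairs were then closer: Cd5l with Adgre1 went from 0.378 to 0.823, Vsig4 with Cd5l from 0.425 to 0.702 and Vsig4 with Fcer1g from 0.218 to 0.595. Cd5l with C1qb was the closest pair, at 0.887.

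**Figure D5:**
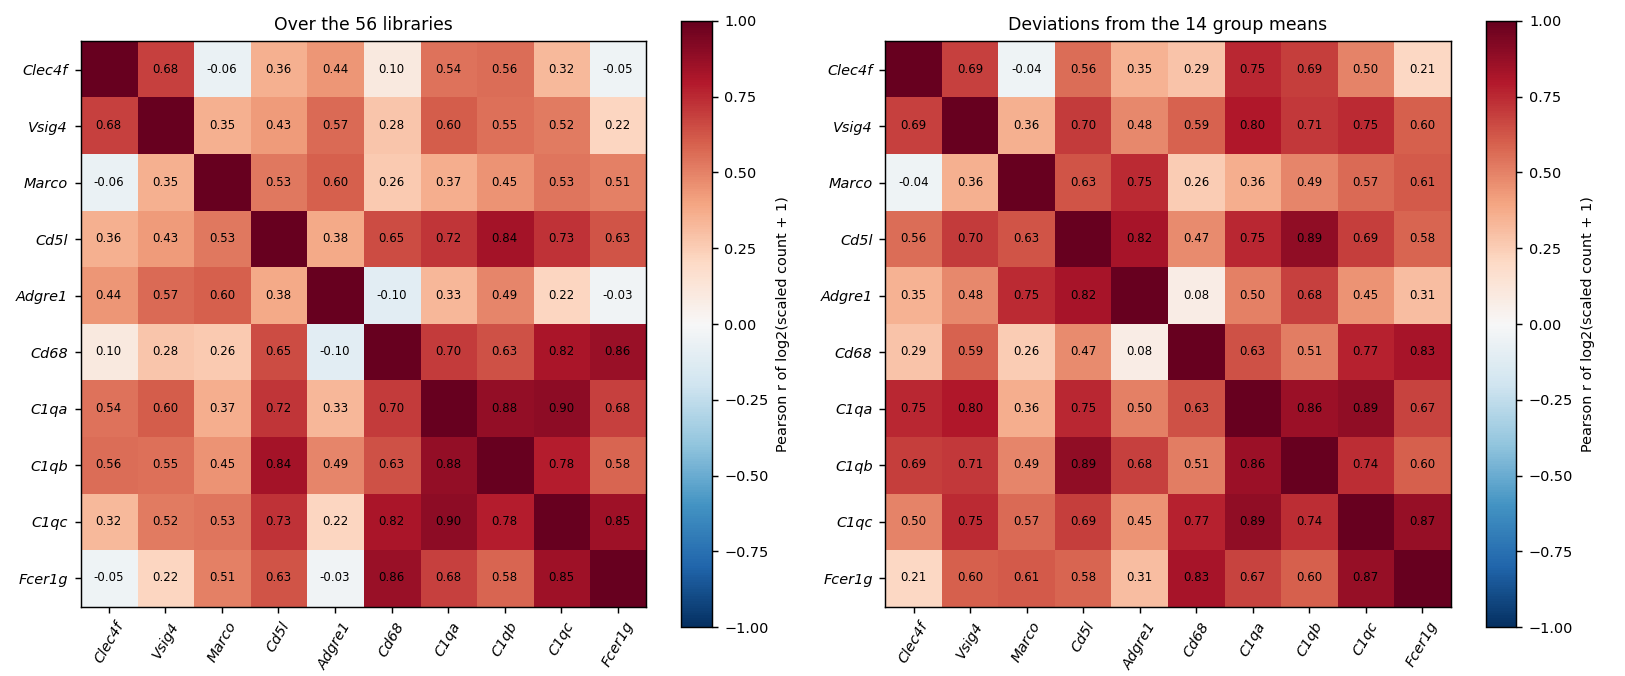
Pearson's r between the 10 genes (both axes) over 56 libraries on the left and over the deviations from the 14 group means on the right, as colours and printed values. The C1q chains stand at 0.78 to 0.90 on the left, and Adgre1 with Cd68 (-0.10) and Fcer1g (-0.03) turn from below 0 to above 0 on the right (0.08 and 0.31).

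The genes most like the mean standardised profile of the members were searched among 13725 other genes with a mean scaled count of at least 1. The nearest were Tyrobp (r = 0.887), an adaptor of activating receptors in myeloid cells, and Csf1r (0.886), the receptor for the macrophage growth factor. Laptm5 (0.864), Ly86 (0.857), Sdc3 (0.847), Cyba (0.843), Cfp (0.836), Themis2 (0.83), AB124611 (0.825) and Itgb2 (0.823) followed. These are descriptions over the same 56 libraries. For deviations from group means the 10 stayed between 0.79 and 0.911.

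Other lists of the pathway and of other liver cells were set beside the members, each with its number of genes that differed in rhythm-adjusted mean. Of all genes tested, 4.1% were higher and 2.7% lower under DRF. Of 20 other Kupffer cell identity genes, 1 was lower under DRF and none higher. That gene was Irf7, an interferon regulatory factor (log2 difference -0.18 ± 0.05, adjusted p = 0.0202), and the list's median difference was -0.01. Of 7 measured signals for Kupffer cells, Csf1, the macrophage growth factor, was lower (-0.20 ± 0.05, adjusted p = 0.0145).

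Of 9 measured genes of the C1 complex and its control, 3 were lower under DRF and none higher: C1rb (-0.25 ± 0.04, adjusted p = 4.98e-06), C1ra (-0.23 ± 0.04, adjusted p = 3.11e-05) and C1s1 (-0.14 ± 0.03, adjusted p = 0.000143). These encode the proteases that join C1q in the C1 complex and are made largely by hepatocytes. C1ra and C1rb are near-identical copies whose reads may be shared. None of 10 measured Fc receptors and adaptors differed. Its best expressed genes were Fcgrt, with 82.8 ± 6.39 under DRF and 80.2 ± 15.9 under NRF (SD, n = 28 each), and Fcgr2b, with 31.1 ± 3.17 and 31.2 ± 2.95. Of 13 scavenger receptors, Cd36 (0.55 ± 0.07, adjusted p = 1.56e-07) and Scarb1 (0.21 ± 0.04, adjusted p = 0.000507) were higher under DRF, and none was lower.

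Markers of other cells were compared in the same way. Of neutrophil, dendritic, B, and T and NK cell markers, 0 of 7, 0 of 10, 1 of 6 (Pax5) and 1 of 9 (Cd4) were lower under DRF, and none was higher. The summed level of the 7 monocyte markers was 13.7 to 29.8 under DRF and 11.6 to 39.8 under NRF, against 571 to 997 and 551 to 1261 for the 10 members. Neutrophil markers summed to 1.65 to 4.46 and 1.68 to 4.59, and Elane, Ngp and Ltf were at 0 in 11, 18 and 20 libraries.

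Sinusoidal endothelial markers showed 0 of 10 genes that differed, stellate cell markers 1 of 10 lower (Hhip), cholangiocyte markers 1 of 6 higher (Tspan8), and hepatocyte markers 2 of 9 higher and 2 of 9 lower. In rhythm, 7 of the 10 sinusoidal endothelial markers differed between regimens, and 7 differed at 1 or more times. For the 20 other Kupffer cell identity genes these counts were 7 and 8, and for the 13 scavenger receptors 7 and 8. Stellate cell markers gave 2 and 4 of 10, and dendritic cell markers 0 and 1 of 10. Of all genes tested, 38.8% and 42.5% did. Of the hepatocyte markers, Apoa1 (-0.33 ± 0.10, adjusted p = 0.0328) and Fgb (-0.13 ± 0.04, adjusted p = 0.0329) were lower and Cps1 (0.24 ± 0.07, adjusted p = 0.0353) was higher in the rhythm-adjusted mean. All 5 red blood cell genes were higher under DRF, with a median log2 difference of 0.52. Their summed level was 567 to 2039 under DRF and 469 to 1351 under NRF. Whether blood content bears on the members was not tested.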

How the data were processed

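Liver RNA-seq was measured in 56 libraries, 4 for each of 14 groups (DRF and NRF at 7 zeitgeber times), grouped by their titles. Per the labels, RNA was depleted of ribosomal RNA and made into strand-specific libraries, while the molecule field names polyA RNA. The submitters' processing notes list CASAVA 1.8, featureCounts 1.5.0-p3 and the builds mm10 and GRCm38.p6. The aligner and whether strand was used in counting are not given in the sources used here.

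The authors deposited gene values under the name TPM, which are treated here as a score, because they are not linear in the counts. Each value times its exon length (GENCODE M21, GRCm38) was the natural logarithm of 1 plus a scaled count, times a factor of the library. Undoing this gave recovered counts that were whole within 0.05 for 96.3% to 96.7% of genes of moderate count in a library, against 10% by chance, and for all 10 members in all libraries. Lengths were taken from the annotation for 23012 genes, searched for 2209, and kept for 149 very abundant genes. Genes left out numbered 45. Recovered counts summed to between 144 M and 333 M in a library, above the sequencing depth that the study describes, so they are not called reads. Between 304 and 723 recovered counts made 1 scaled count.

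log2(scaled count + 1) was fitted with limma 3.58.1 (R 4.3.3, trend) on all 56 libraries and 25370 genes, as a 24 h cosine per regimen and as 14 group means, with Benjamini-Hochberg adjustment over all genes at 0.05. A fold on this scale understates the change of low genes such as Cd68. Pairs and library indices were tested with 100000 two-sided permutations (Python 3.11.15, numpy 2.4.6). The fits were tested on simulated data. Alternatives were another scaling, a length correction, pseudocount 0.1, the values as deposited, a filter at a mean scaled count of 1, left-out replicates and times, a replicate block and an exact Kendall rank test with 12 templates. The method had been planned for linear TPM with a recovery of counts if needed. The members and lists were chosen with earlier results of these data known. All members are described. From each other list at most 3 genes are named, those with the smallest adjusted p for the mean difference or, where none passed, the 2 with the highest mean, and the 10 genes most like the members. Elane, Ngp and Ltf are named outside this rule, after their values were seen, as markers at 0 in some libraries. The deposited transcript and circular RNA tables were not used here. The test of the monocyte markers is not reported here.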

Additional observations from a re-analysis of the deposited data

Results flagged for a closer look

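In 140 tests of a member in a group of 4 libraries, 9 groups had a library whose gap to its nearest neighbour, as a share of the group's range, was above Dixon's 95% critical value, where chance gives about 1 in 20 groups. Vsig4 had such a library in NRF ZT8 (share 0.859, replicate 1 at 235 against 177 to 185) and in NRF ZT16 (share 0.9001, replicate 1 at 135 against 205 to 213). Cd5l stood out in NRF ZT8 (share 0.87), again in replicate 1, at 164 against 129 to 134. C1qa had a low library in DRF ZT0 (share 0.85, replicate 4 at 24.2 against 26.2 to 26.5) and a high library in DRF ZT16 (share 0.88, replicate 2 at 25.7 against 21.7 to 22.2). The latter library was also high in C1qc (share 0.859, at 13.9 against 11.2 to 11.6). Cd68 was low in NRF ZT0 replicate 1 (share 0.856, at 2.03 against 2.9 to 3.05). Adgre1 was high in NRF ZT0 replicate 3 (share 0.861, at 293 against 194 to 208) and in NRF ZT20 replicate 4 (share 0.859, at 238 against 196 to 202).

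The 24-h rhythm of Adgre1 differed between DRF and NRF by the test of the difference itself (adjusted p = 0.013 in limma over all genes).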

How the results depend on the processing

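The rhythm-adjusted mean differed for 0 members under all alternatives, as did the level at ZT4, ZT8 and ZT16, and 29 to 38 pairs correlated (37 as reported). Of the member counts under alternatives, 163 stayed within 1.5 times and 40 did not, and among values of single members 26 lost and 14 gained a call, with no reversal. Median-of-ratios scaling gave 2 members at ZT24. The length correction gave 5 rhythmic members under DRF and 3 under NRF, 1 that differed between ZT0 and ZT24 under NRF, and 2 at ZT24. The values as deposited gave 5 rhythmic members under DRF, 2 under NRF, 0 with a rhythm difference, and 0 and 4 that differed between ZT0 and ZT24 under DRF and NRF. A mean scaled count of at least 1 gave 3 and 1 between ZT0 and ZT24, 1 at ZT20 and 2 at ZT24. Without ZT24, 5 were rhythmic under DRF and 1 differed at 1 or more times. The exact Kendall rank test, which called 32.2% of all genes under DRF and 34% under NRF, gave 3 members under NRF, without C1qa and C1qc. Among alternatives chosen after seeing the data, leaving out NRF ZT24 replicate 4 gave 2 rhythm differences (Cd5l and Adgre1), and leaving out NRF ZT12 replicate 3 and NRF ZT16 replicate 3 gave 2 members between ZT0 and ZT24 under DRF and 2 at ZT12. Over the settings that left out a replicate number or single libraries, 1 to 3 members were rhythmic under DRF, 2 to 5 under NRF, 0 to 2 differed in rhythm, 1 to 3 at 1 or more times, 0 to 2 between ZT0 and ZT24 under DRF, 0 to 1 under NRF, 0 to 1 at ZT0, 0 to 2 at ZT12 and 0 to 1 at ZT20. With a replicate block, 3 members differed between ZT0 and ZT24 under DRF, 1 at ZT20 and 2 at ZT24. On average, libraries with the same number did not deviate together (mean r 0.0048, against -0.0016 for other numbers). Of pairs with the same number 33 of 364 were over 0.1, and 18 of 56 libraries were closest to their own number. The main fits used no pairing, and these values cannot exclude a shared batch. The causes of these changes were not tested. Group size limits single times, and Cd68, at 1.54 to 4.19 scaled counts, rests on the lowest counts of the members.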
